A study of Homo sapiens with 346 samples.

Results

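A set of 43 genes that act in G2 phase and mitosis was followed through single-cell RNA sequencing of live and methanol-fixed human cells. The genes were taken by a list of names, not by a threshold on their values, and all 43 had a row in both gene tables, among 26894 genes listed in both. The lines were HCT-116, from a colorectal carcinoma, and HepG2, which by name is a hepatocellular line. Live cells were stained to remove dead ones and sorted on the day of harvest, while cells of the same suspension were fixed in 80% methanol, kept frozen for 1 week, rehydrated and sorted. Every library was made with Smart-seq2, a full-length method that copies polyadenylated RNA of 1 cell. Values were at hand for 91 live cells and 92 fixed cells of HCT-116, and for 68 and 83 of HepG2. Both lines had been grown without any other treatment or genetic change that the labels name.

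The HCT-116 experiment was done once and the labels do not tell the HepG2 runs apart, which leaves every group as 1 sample. No test between treatments was therefore possible and no p-value is given. SDs describe the spread between cells, and a gene is counted as lower or higher only past a 2-fold ratio of means. Fixed cells went through sorting and library preparation after the storage, so fixation and library batch cannot be told apart. Median depth was between 1.8 and 2.5 M (mega) reads per cell in the 4 groups, with fixed cells the shallower in each line. A median of 24.8% of the TPM (transcript abundance scaled to a fixed total per cell) was ribosomal RNA in live HCT-116 cells and 7.66% in fixed ones, against 6.86% and 2.46% in HepG2. One live and 1 fixed HepG2 column hold the same values in every gene, and 6 fixed HepG2 columns correlate above 0.95 with at least 3 others. The cells labelled HepG2 do not show their label. Of 17 hepatocyte markers (9 with a row), 0 were above 1 TPM in 50% of the cells or more. Of 12 luminal breast markers 11 were, ESR1, GATA3 and TFF1 among them. The cells are called HepG2 here only after that label. In HCT-116, 1 of 12 intestinal markers (7 with a row), the factor CDX2, was above 1 TPM in 50% of the cells or more. Of the luminal breast markers, 4 of 12 were in HCT-116, namely XBP1, KRT8, KRT18 and KRT19.

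Entry into mitosis is driven by the kinase CDK1 with its cyclin partners, helped by Polo-like and Aurora kinases and the CDC25 phosphatases. The spindle assembly checkpoint then holds back the anaphase-promoting complex until every kinetochore is attached to microtubules, after which CDC20 switches the complex on and the chromosomes separate. Most genes of this program are repressed in G1 and transcribed from late S phase to mitosis. A CHR element (cell cycle genes homology region) near the transcription start, often with CCAAT boxes, is known to take part in this timing.

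Many of the genes carry the same short motifs in their promoters. RefSeq (GRCh38.p14) gives 300 bases of promoter, 250 before and 50 after the start of transcription, for 34 of the 43 genes. The CHR letters TTTGAA, searched on both strands, were in 24 of these 34 promoters (70.6%) and in 15.4% of all 27305 promoters of the same length. The letters CCAAT, also on both strands, were in 24 of 34 (70.6%) against 35.7% of all promoters, and both motifs together in 19 (55.9%) against 6.08%. In 28 genes the RefSeq start lies within 50 bases of the start of the MANE Select transcript, and 23 of those 28 hold a CHR match. TACC3, CDC25B and CDC25C are 3 of the 6 genes whose start in the table lies farther off, by 890, 9359 and 6551 bases. Only the letters TTTGAA were searched as a CHR, and other forms of the element were not. A match of letters describes the sequence and is not shown to be a bound site.

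DLGAP5 and CDCA3 varied best with the rest of the set, ranked by the group where each gene co-varied least. PLK1 was lower in the mean of fixed cells. BUB1 co-varied nearly as strongly as DLGAP5 and CDCA3 but has no TTTGAA on either strand in this window. The promoters of these 4 genes are given below. Each is written 5′ to 3′ on the strand of the gene, and capitals mark CHR and CCAAT letters on either strand. No CHR match overlaps a CCAAT match in them. They lie at chr14:55191536-55191835 on the minus strand for DLGAP5, at chr12:6851237-6851536 on the minus strand for CDCA3, at chr16:23678639-23678938 on the plus strand for PLK1 and at chr2:110678014-110678313 on the minus strand for BUB1.
DLGAP5: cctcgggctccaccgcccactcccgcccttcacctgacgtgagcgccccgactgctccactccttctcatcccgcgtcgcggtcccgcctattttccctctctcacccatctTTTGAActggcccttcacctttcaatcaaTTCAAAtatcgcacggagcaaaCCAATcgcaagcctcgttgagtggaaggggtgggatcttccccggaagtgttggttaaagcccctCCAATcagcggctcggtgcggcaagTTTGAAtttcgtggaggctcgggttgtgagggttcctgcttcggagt
CDCA3: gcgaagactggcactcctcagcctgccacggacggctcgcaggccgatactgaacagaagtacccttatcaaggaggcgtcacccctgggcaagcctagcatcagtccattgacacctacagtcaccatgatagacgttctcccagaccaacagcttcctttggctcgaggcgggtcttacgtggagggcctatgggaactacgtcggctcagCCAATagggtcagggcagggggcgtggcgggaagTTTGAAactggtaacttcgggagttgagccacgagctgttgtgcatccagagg
PLK1: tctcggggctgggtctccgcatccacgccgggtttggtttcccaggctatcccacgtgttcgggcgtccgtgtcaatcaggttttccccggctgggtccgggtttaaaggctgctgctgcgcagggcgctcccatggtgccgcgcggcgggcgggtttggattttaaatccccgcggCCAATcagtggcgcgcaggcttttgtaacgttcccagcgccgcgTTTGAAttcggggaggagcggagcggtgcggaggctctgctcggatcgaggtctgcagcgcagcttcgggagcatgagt
BUB1: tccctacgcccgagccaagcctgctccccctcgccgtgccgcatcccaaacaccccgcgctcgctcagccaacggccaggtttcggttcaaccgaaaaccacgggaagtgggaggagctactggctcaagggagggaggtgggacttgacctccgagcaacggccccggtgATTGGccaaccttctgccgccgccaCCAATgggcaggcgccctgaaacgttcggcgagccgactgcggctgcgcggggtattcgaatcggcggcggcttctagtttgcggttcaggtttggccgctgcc

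In DLGAP5 the CHR match nearest to the start begins at position 4, counted from 1 at the first transcribed base, and a CCAAT box begins 22 bases before the start. PLK1 has its single CHR match 29 bases before the start and its single CCAAT box 73 bases before it. CDCA3 carries the same pair at 3 and 37 bases before the start. BUB1 has a CCAAT box on each strand, at 54 and 79 bases before the start.

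Levels of the 43 genes, in TPM and so corrected for transcript length, ran from 4.68 to 588.7 in live HCT-116 and from 5.54 to 377.3 in live HepG2 cells. High means in every group belonged to CKS2 and CKS1B, small subunits that bind CDK1, to UBE2C, the ubiquitin-conjugating enzyme of the anaphase-promoting complex, and to PTTG1, or securin, which that complex destroys. CKS2 averaged 588.7 TPM (SD 494.9) in 91 live HCT-116 cells and 614.5 (SD 567.6) in 92 fixed ones. In HepG2 the CKS2 means were 358.5 (SD 372.3) in 68 live and 480.7 (SD 388.5) in 83 fixed cells. At the other end stood CENPE, a kinetochore kinesin, with means from 4.68 TPM in live HCT-116 to 5.65 TPM in fixed HepG2 cells, and CENPA, the histone H3 variant of centromeres, from 5.61 to 8.60 TPM. The 43 means had a median of 30.9 TPM for live and 31.4 TPM for fixed HCT-116, and 29.5 and 34.5 TPM in HepG2.

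**Figure D1:**
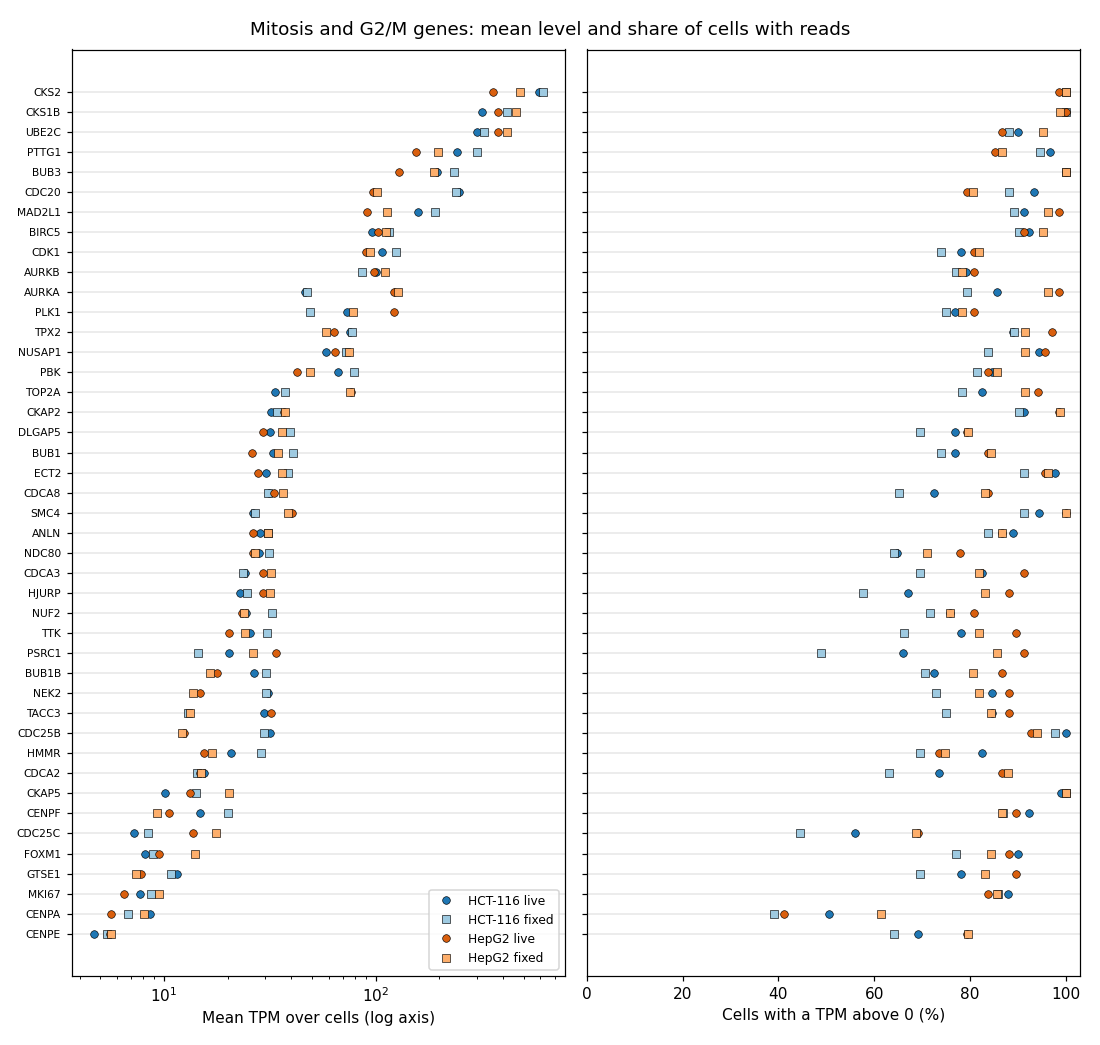
Mean TPM over cells on a log axis (left) and percent of cells with a TPM above 0 (right) for the 43 genes, ordered by mean level, in live (circles) and fixed (squares) HCT-116 (blue) and HepG2 (orange) cells. CKS2, CKS1B and UBE2C are the highest in all 4 groups, and CENPA is the gene found in the fewest cells of fixed HCT-116 (39.1%) and live HepG2 (41.2%).

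Most of the genes were detected in most cells. The median over the 43 genes was 84.6% of live and 77.2% of fixed HCT-116 cells, and 88.2% of live and 85.5% of fixed HepG2 cells. BUB3, a checkpoint protein that binds BUB1 and BUB1B, was found in every cell of all 4 groups. CENPA was the least often detected, at 50.5% in live HCT-116 (39.9 to 61.2, exact 95% interval by Clopper-Pearson) and 39.1% in fixed HCT-116 (29.1 to 49.9). In HepG2 the order was the other way round, with CENPA in 41.2% of live (29.4 to 53.8) and 61.4% of fixed cells (50.1 to 71.9). These intervals cover counting error only. Fixed HCT-116 cells had the lower detection for 38 of the 43, as for 76.7% of all tested genes, and fixed HepG2 cells for 23 of the 43, against 63.8% of all. With reads thinned to 500000 per cell the medians came to 79.1% and 75.9% in HCT-116 and to 82.4% and 80.7% in HepG2. With cells paired on total reads the order turned, at 83.02% live and 84.9% fixed in HCT-116 and at 86.8% and 92.1% in HepG2. Which cells entered the pairs was set by the order of the columns.

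The average level of the set was close in fixed and live cells of both lines when all cells were used. Over the 43 genes, the log2 ratio of fixed to live means had a median of 0.16 in HCT-116, against 0.17 over all 11813 tested genes (mean of at least 1 TPM), and 0.13 in HepG2, against 0.15 over 12486 genes. Changes are read below against these shifts of all genes. With ribosomal RNA left out of the totals the medians were -0.16 in HCT-116 (all genes -0.16) and -0.012 in HepG2 (all genes -0.035), so the sign of a small ratio depends on the scaling. Of the 43 genes, 1 was at least 2-fold lower and 0 at least 2-fold higher in fixed cells of either line. The background was 8.84% of tested genes lower and 2.99% higher in HCT-116, and 9.76% lower and 4.89% higher in HepG2. Without ribosomal RNA these were 14.8% and 1.67% in HCT-116, with 12.8% and 3.25% in HepG2. The HepG2 value changed when cells were weighted or paired by total reads, which also changes the cells that count, and the cause was not tested. Cells were weighted so that live and fixed cells counted alike at each number of reads found in both treatments. The HepG2 median was then 0.72, where all genes stood at 0.24. Of the 43, 1 gene was 2-fold higher and 0 lower, beside 5.30% and 10.1% of all genes. Pairs took the first cells in column order at each number of reads, and other draws were not tried. With 38 live and 38 fixed HepG2 cells paired on reads the median was 0.87, where all genes stood at 0.23. There 10 genes were 2-fold higher and 0 lower, beside 6.46% and 11.3% of all genes. In HCT-116 the same steps gave 0.35 and 0.17, where all genes stood at 0.18 and 0.17.

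TACC3 was the gene past 2-fold in both lines. It codes for a spindle protein that, with clathrin and the microtubule polymerase CKAP5, links microtubules of the kinetochore fibre, and lies at chr4:1721521-1745171 on the plus strand (MANE Select transcript, GENCODE release 44, GRCh38). In live HCT-116 cells TACC3 ranged from 0 to 96.7 TPM with a median of 25.6, and in fixed ones from 0 to 74.4 with a median of 10.7. In live HepG2 cells the range was 0 to 133.1 TPM with a median of 26.9, and in fixed ones 0 to 65.1 with a median of 10.5. The ranges of live and fixed cells overlap in both lines, with the medians and the highest cells lower after fixation. Means went from 29.8 TPM (SD 26.3, n = 91) to 12.97 (SD 14.3, n = 92) in HCT-116, which is 2.30-fold lower (log2 ratio -1.20), and from 32.2 (SD 30.8, n = 68) to 13.4 (SD 13.1, n = 83) in HepG2, 2.41-fold lower (log2 ratio -1.27). Both differences are smaller than the SD over live cells.

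The share of cells with TACC3 moved less, from 84.6% (75.5 to 91.3) to 69 of 92 cells (64.9 to 83.4%) in HCT-116 and from 88.2% (78.1 to 94.8) to 84.3% (74.7 to 91.4) in HepG2. Reads of its curated RefSeq transcript, in CPM (read counts scaled to the depth of the cell, not divided by length), averaged 53.7 (live) and 20.98 (fixed) in HCT-116, and 66.1 and 26.1 in HepG2. TACC3 had the lowest log2 ratio of the 43 genes in both lines and under each alternative setting. Relative to the median of the set it stood at -1.36 in HCT-116 and -1.40 in HepG2 on the log2 scale. In HepG2 cells paired on reads the TACC3 ratio was -0.80, short of 2-fold, and -1.68 relative to the set.

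By mean TPM, PLK1 and PSRC1 came next in both lines without passing 2-fold. PLK1 codes for the Polo-like kinase that acts from mitotic entry to cytokinesis, and PSRC1 for a microtubule-associated protein of the spindle. PLK1 averaged 73.1 TPM (SD 93.9) in live and 48.9 (SD 60.2) in fixed HCT-116 cells, a log2 ratio of -0.58. In HepG2 its means were 122.2 (SD 198.5) and 78.6 (SD 108.1), a log2 ratio of -0.64. The median HepG2 cell went the other way, from 26.1 TPM live to 36.3 TPM fixed, while the highest cell went from 814.7 to 516.6. On the mean of log2(TPM + 1) the PLK1 difference in HepG2 was -0.016, and with cells paired on reads its log2 ratio was 0.17. PSRC1 had a log2 ratio of -0.49 in HCT-116, where the share of cells with it went from 65.9% to 48.9%. On the mean of log2(TPM + 0.1) PSRC1 passed 2-fold in HCT-116, at -1.17. Its log2 ratio in HepG2 was -0.37, and 0.048 with cells paired on reads. In CPM summed over its transcripts, PSRC1 went from 16.1 to 12.96 in HCT-116 (log2 ratio -0.31) and stood at 23.4 in both live and fixed HepG2 cells. In HCT-116 its 3 curated transcripts had log2 ratios of mean CPM of 1.02 (from 0.580 to 1.18 CPM), 0.22 and 0.37. A predicted one, from 3.42 to 0.726 CPM, had -2.24, and other predicted ones had -0.077 and -0.96. In HepG2 the same curated transcripts had 1.04, 0.35 and -0.61, and predicted ones ran from -1.60 to 0.81.

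At the upper end stood CKAP5, the microtubule polymerase that binds TACC3. It averaged 10.1 TPM (SD 7.16) in live and 14.3 (SD 9.05) in fixed HCT-116 cells, and 13.3 (SD 10.7) and 20.2 (SD 13.5) in HepG2. The log2 ratios were 0.50 and 0.60, or 0.33 and 0.46 above the median of all genes, so that CKAP5 and TACC3, whose proteins act together, were at opposite ends of the set in both lines. Other high ratios in HCT-116 were those of HMMR (0.47) and CENPF (0.44), which code for a spindle and a kinetochore protein, NUF2 of the NDC80 complex (0.40) and CKS1B (0.38). In HepG2 they were those of FOXM1, a transcription factor of this program (0.57), BUB3 (0.56), MKI67, which codes for the Ki-67 protein of the chromosome surface (0.55), and CENPA (0.53). CENPA had the opposite sign in HCT-116, at -0.35.

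**Figure D2:**
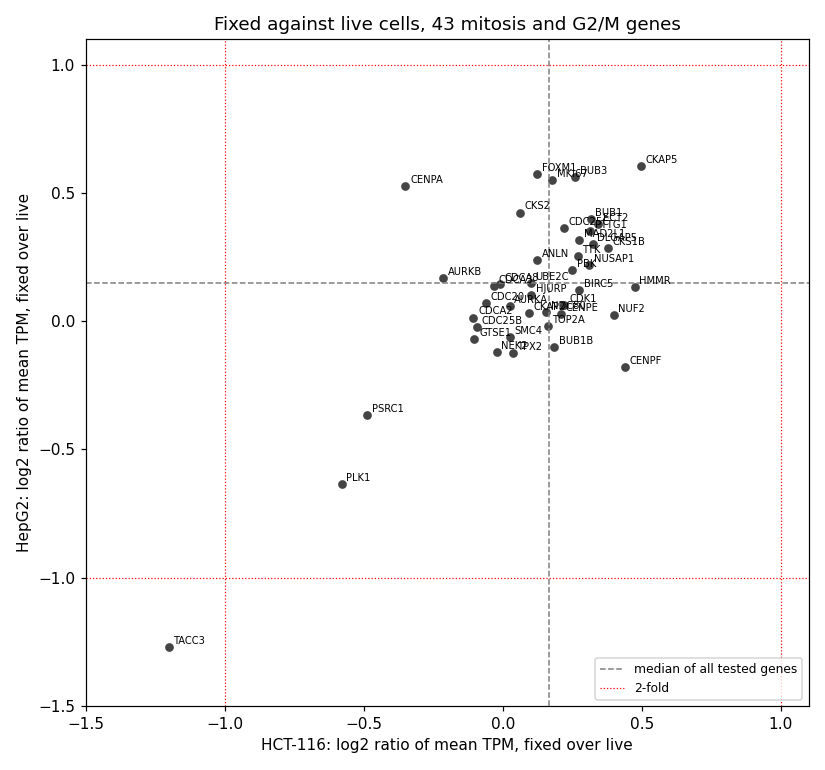
Log2 ratio of mean TPM in fixed over live cells, HCT-116 on the x axis and HepG2 on the y axis, 1 point per gene, with dashed lines at the median of all tested genes (0.17 and 0.15) and dotted lines at 2-fold. TACC3 is alone past 2-fold in both lines, followed by PLK1 and PSRC1, and CKAP5 is at the upper right.

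By role, the 5 checkpoint genes (BUB1, BUB1B, BUB3, TTK and MAD2L1) had a median log2 ratio of 0.27 in HCT-116, where all 5 were above the median of all genes, and of 0.31 in HepG2, where 4 were, with BUB1B at -0.10. Among 11 genes of mitotic entry the median was 0.06 in HCT-116 and 0.14 in HepG2, with PLK1 the lowest in both. CDK1 itself was at 0.22 and 0.06, AURKA at 0.02 and 0.06, and the phosphatases CDC25B and CDC25C at -0.09 and 0.22 in HCT-116, with -0.02 and 0.36 in HepG2. The 6 genes of centromere and kinetochore ranged from -0.35 (CENPA) to 0.44 (CENPF) in HCT-116 and from -0.18 (CENPF) to 0.53 (CENPA) in HepG2. The 9 spindle genes had the widest range in each line, since they hold TACC3 and CKAP5. In the passenger complex, the kinase AURKB was at -0.22 in HCT-116 and 0.17 in HepG2, and BIRC5, or survivin, at 0.28 and 0.12. TOP2A and SMC4, which untangle and condense chromosomes, were at 0.16 and 0.02 in HCT-116 and at -0.02 and -0.06 in HepG2. ANLN and ECT2, which build the cleavage furrow, were at 0.12 and 0.34 in HCT-116 and at 0.24 and 0.38 in HepG2.

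Relative to all genes, 13 of the 43 were above the median and 18 below it in both lines, and 12 were above in 1 line and below in the other. Of 10443 genes tested in both lines, 3874 were above in both, 3616 below in both and 2952 on opposite sides. The log2 ratios of the 43 genes in the 2 lines had a Pearson r of 0.709 and a Spearman rho of 0.450, beside 0.612 and 0.553 over 10443 genes tested in both lines. This is a correlation across genes, which are not independent, and TACC3, PLK1 and PSRC1 stand apart from the other points. Of 95 other mitosis genes, 94 were tested in each line. Their median log2 ratio was 0.17 in HCT-116, with 6 genes 2-fold lower and 2 higher, beside 8.84% and 2.99% of all tested genes. In HepG2 their median was 0.07, with 4 lower and 0 higher, beside 9.76% and 4.89%. The lowest in HCT-116 were PKMYT1 (-1.82), the kinase that inhibits CDK1, KIF18B (-1.81) and MAD1L1 (-1.57), a checkpoint gene, and the highest were INCENP (1.49), KNTC1 (1.12) and RACGAP1 (0.89). In HepG2 the lowest were PKMYT1 (-2.04), NCAPH2 (-1.45) and KIFC1 (-1.29), and the highest ANAPC1 (0.96), MAD2L1BP (0.74) and INCENP (0.68).

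Transcript GC content moved with these ratios. The GC percent of the MANE Select transcript ran from 35.1 in CENPE to 59.1 in CDC25B, with a median of 43.5 over the set and of 47.6 over the HCT-116 genes tested that had a transcript (88.5% of 11813). Across the 43 genes, GC and the log2 ratio of fixed to live had a Pearson r of -0.633 and a Spearman rho of -0.597 in HCT-116, beside -0.454 and -0.484 over all genes. In HepG2 they were -0.312 and -0.133, beside -0.294 and -0.296. Without TACC3 and PLK1, r was -0.580 in HCT-116 and -0.059 in HepG2, so that the HepG2 value rested on those genes. TACC3 (57.8%), PLK1 (57.1%) and PSRC1 (56.3%) were 3 of the 6 genes richest in GC. CDC25B (59.1%), CDC20 (56.9%) and FOXM1 (55.7%), the other members of those 6, had ratios of -0.09, -0.06 and 0.12 in HCT-116 and of -0.02, 0.07 and 0.57 in HepG2. Transcript length had an r of 0.206 in HCT-116 and 0.029 in HepG2. The part of GC content in the ratios was not tested.

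**Figure D3:**
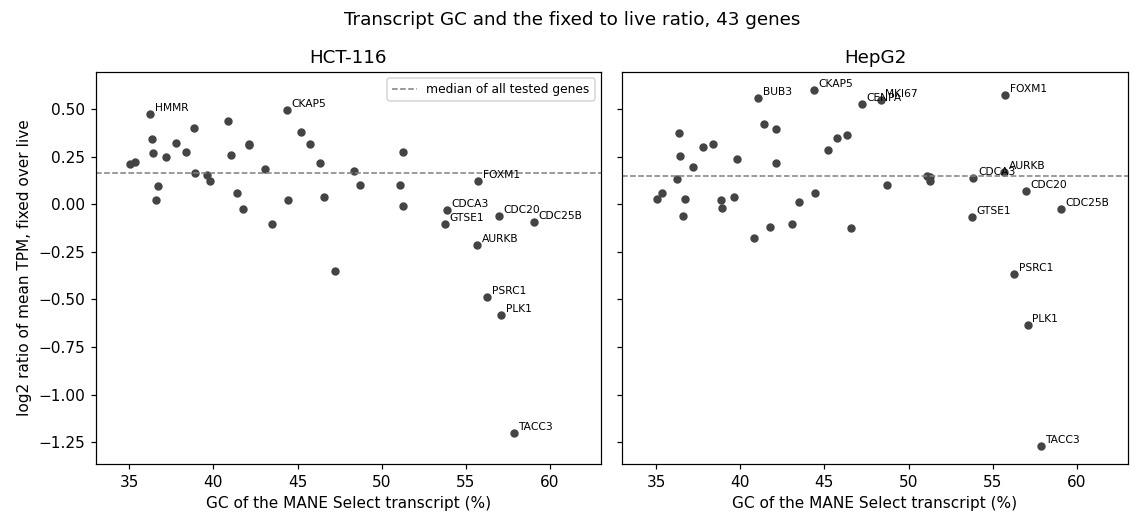
GC percent of the MANE Select transcript (x axis) and log2 ratio of mean TPM in fixed over live cells (y axis) for the 43 genes in HCT-116 (left) and HepG2 (right), with the median of all tested genes dashed. The lowest points, TACC3, PLK1 and PSRC1, have over 56% GC, and CDC25B, CDC20 and FOXM1 at like GC stay between -0.09 and 0.57.

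The spread between cells was wide in every group, with each gene low in some cells and high in others. The coefficient of variation (CV, SD over mean) of TPM had a median over the 43 genes of 1.01 (live) and 1.20 (fixed) in HCT-116. In HepG2 the order was reversed, at 1.13 in live and 0.985 in fixed cells. Over all tested genes the medians were 0.831 and 1.02 in HCT-116, with 0.799 and 0.915 in HepG2. The CV was the higher one in fixed HCT-116 cells for 38 of the 43, as for 84.8% of all genes, and in fixed HepG2 cells for 10 of the 43, against 67.5% of all genes. Leaving out the 6 very similar fixed HepG2 columns gave 1.01 in fixed cells. Pairing on reads kept both orders, at 1.01 live and 1.09 fixed in HCT-116 and at 1.27 and 0.826 in HepG2. In live HCT-116 cells CKS1B, CDC25B and BUB3 were steady, with CVs of 0.519, 0.550 and 0.581, and CENPA was the most variable, at 1.51.

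Across single cells the genes varied together. The median Pearson r of ln(TPM + 1) over the 903 pairs of genes was 0.753 in live HCT-116 cells (n = 91), 0.685 in fixed ones (n = 92), 0.754 in live HepG2 cells (n = 68) and 0.716 in fixed ones (n = 83). For all tested genes the median lay between 0.025 and 0.073. From 91.8% (fixed HepG2) to 97.6% (live HepG2) of the pairs had an r above 0.5, a level reached by at most 0.924% of all gene pairs in any group. All pairs of a group share its cells and libraries, so they are not independent. In live HCT-116 cells, pairs of genes with the same role had a median of 0.722 and the other pairs one of 0.757, and the same-role median was also the lower in the other 3 groups. With the number of genes detected in a cell regressed out the 4 medians were 0.731, 0.659, 0.748 and 0.705.

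Fixed cells had the lower coefficients in both lines. In HCT-116, 0 of 43 genes had a higher median r with the others in fixed than in live cells, and 17.4% of pairs were higher. In HepG2, 7 of 43 genes and 31.1% of pairs were higher in fixed cells. The depth of fixed cells was lower too. After thinning to 500000 reads, which used the transcripts of the current RefSeq, the medians were 0.707 and 0.629 in HCT-116, with 0.673 and 0.650 in HepG2. In the 38 live and 38 fixed HepG2 cells paired on total reads the medians were 0.729 and 0.736, so the lower value of fixed HepG2 cells was there after thinning but not in the paired cells. HCT-116 cells paired on reads had 0.750 and 0.669.

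Pairs were compared between groups by their coefficients. Over the 903 pairs, the coefficients in live and fixed cells had an r of 0.906 in HCT-116 and of 0.717 in HepG2, and those of live cells of both lines an r of 0.636. In live HCT-116 cells the highest pair was PBK with BIRC5 (0.949), a mitotic kinase and an inhibitor of cell death that serves the passenger complex, followed by AURKB with BUB1 (0.919) and MAD2L1 with TPX2 (0.906). In fixed HCT-116 cells PLK1 with BUB1 (0.891), NUSAP1 with SMC4 (0.884) and BUB1 with DLGAP5 (0.883) led, and PBK with BIRC5, the only one of the 5 highest pairs found in both HCT-116 groups, was at 0.878. AURKB with NDC80 (0.923) led in live HepG2 cells and PBK with AURKB (0.921) in fixed ones, and the 5 highest pairs of those groups had 0 in common.

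The genes that varied best with the rest in all groups were DLGAP5, a kinetochore fibre protein, with a lowest median r of 0.760, CDCA3 (0.760), which takes part in the turnover of the CDK1 inhibitor WEE1, AURKB (0.759), BUB1 (0.757) and NUSAP1 (0.755), a microtubule bundling protein. CDC25B varied with them least. Its median r was 0.295 (live) and 0.294 (fixed) in HCT-116, where it was found in 100% and 97.8% of cells with a CV of 0.550 and 0.704, and 0.538 and 0.537 in HepG2. The other phosphatase, CDC25C, was at 0.661 and 0.601 in HCT-116 and at 0.750 and 0.705 in HepG2. TACC3 went from 0.776 to 0.644 in HCT-116 and from 0.802 to 0.664 in HepG2, while PLK1 went from 0.781 to 0.726 in HCT-116 and from 0.812 to 0.818 in HepG2. In fixed HepG2 cells CKAP2 (0.489), BUB3 (0.514) and CKAP5 (0.527) were below CDC25B.

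**Figure D4:**
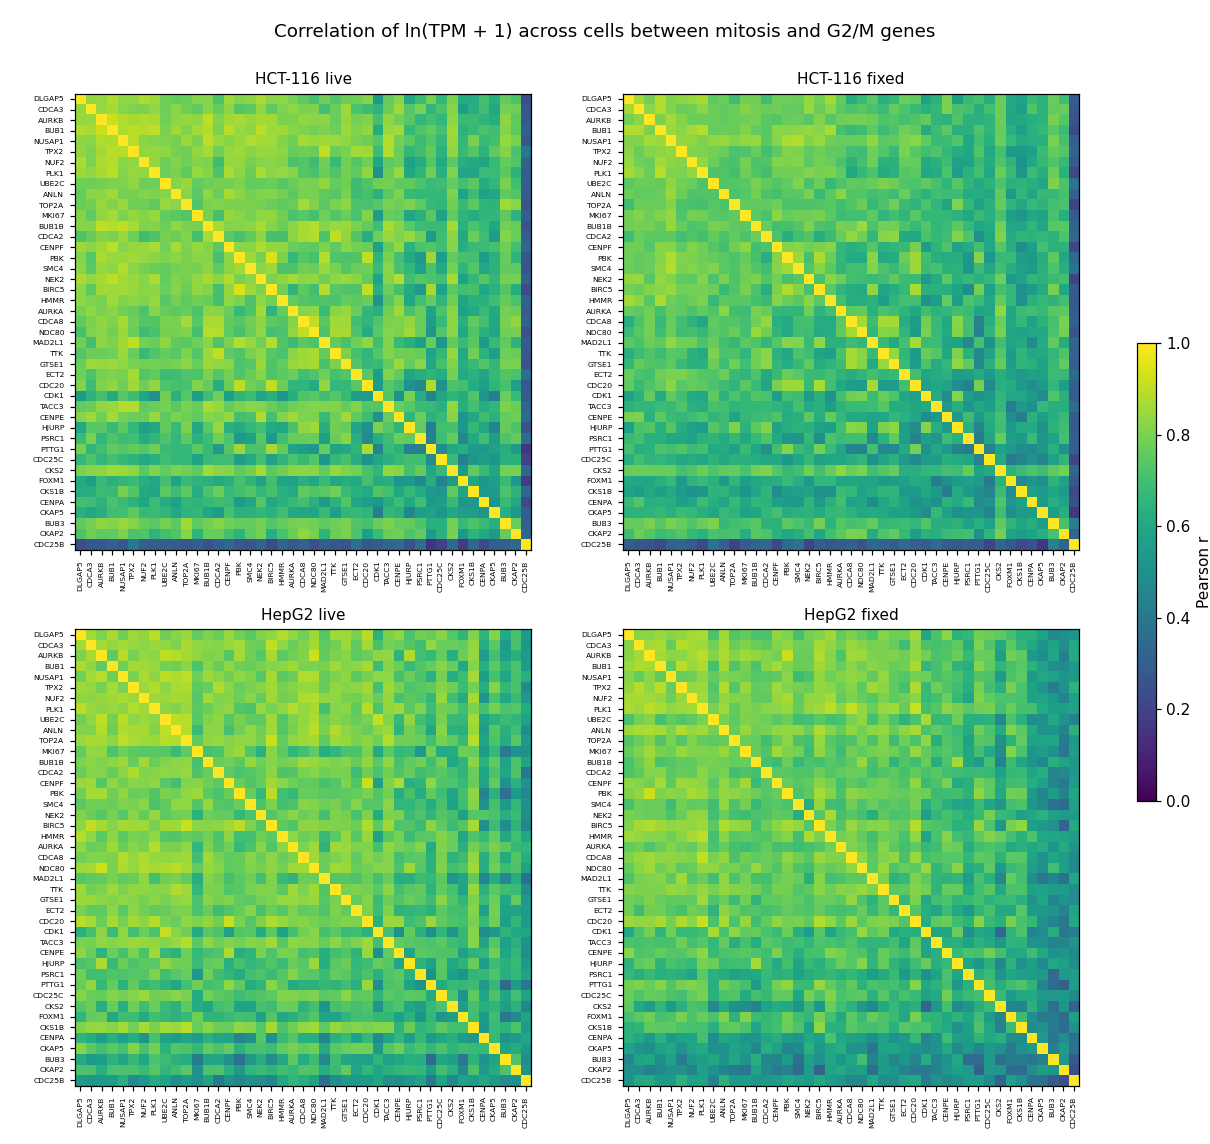
Pearson r of ln(TPM + 1) across cells for all pairs of the 43 genes, 1 panel per group, colour from 0 to 1, genes in the same order in each panel (by their lowest median r in the 4 groups). The dark row and column of CDC25B in HCT-116 (median r 0.295 live and 0.294 fixed) is lighter in HepG2, and the fixed panels are darker than the live ones.

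The mean of log2(TPM + 1) over the 43 genes gives each cell a level for the set. It averaged 4.21 (SD 1.84) in live and 4.09 (SD 1.91) in fixed HCT-116 cells, and 4.13 (SD 1.80) and 4.36 (SD 1.73) in HepG2. The range was nearly equal in the groups, from 0.825 to 7.14 in live and 0.934 to 7.11 in fixed HCT-116 cells, and from 0.902 to 7.05 and 1.01 to 6.98 in HepG2. The live and fixed means differed by less than the SD over cells in both lines. The number of the 43 genes above 1 TPM in a cell ran from 9 to 11 at the least, depending on the group, to all 43. At least 40 genes were above 1 TPM in 50 of 91 live and 39 of 92 fixed HCT-116 cells, and in 41 of 68 live and 54 of 83 fixed HepG2 cells. The level had an r with the number of genes detected of 0.347 and 0.362 in HCT-116 and of 0.216 and 0.257 in HepG2, and with total reads of 0.202, 0.308, 0.329 and 0.163 in the same order. At 57 live and 71 fixed HepG2 cells weighted to the same reads, the level averaged 3.78 and 4.62. In HCT-116 the same weighting gave 4.15 live and 4.33 fixed, the reverse of the order over all cells. With cells paired on reads the level averaged 3.69 live and 4.90 fixed in HepG2, and 4.17 and 4.32 in HCT-116.

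An S-phase list of 73 genes of DNA replication was partly coupled to the set. The mean level of the 2 lists in a cell had an r of 0.744 (live) and 0.756 (fixed) in HCT-116 and of 0.595 (live) and 0.651 (fixed) in HepG2. The relation was not a straight line. In HCT-116 the cells lowest in the mitosis set were low in the S-phase list too, while in HepG2 some of them were not. A live HepG2 cell at 1.24 in the mitosis set had an S-phase level of 3.36, and a fixed one at 1.14 had 3.29. In both lines the cells highest in the mitosis set were below the highest level of the S-phase list. CDK1 was the gene of the set closest to the S-phase list in fixed HCT-116 (r = 0.859), live HepG2 (0.769) and fixed HepG2 cells (0.771), and MAD2L1 in live HCT-116 cells (0.827).

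**Figure D5:**
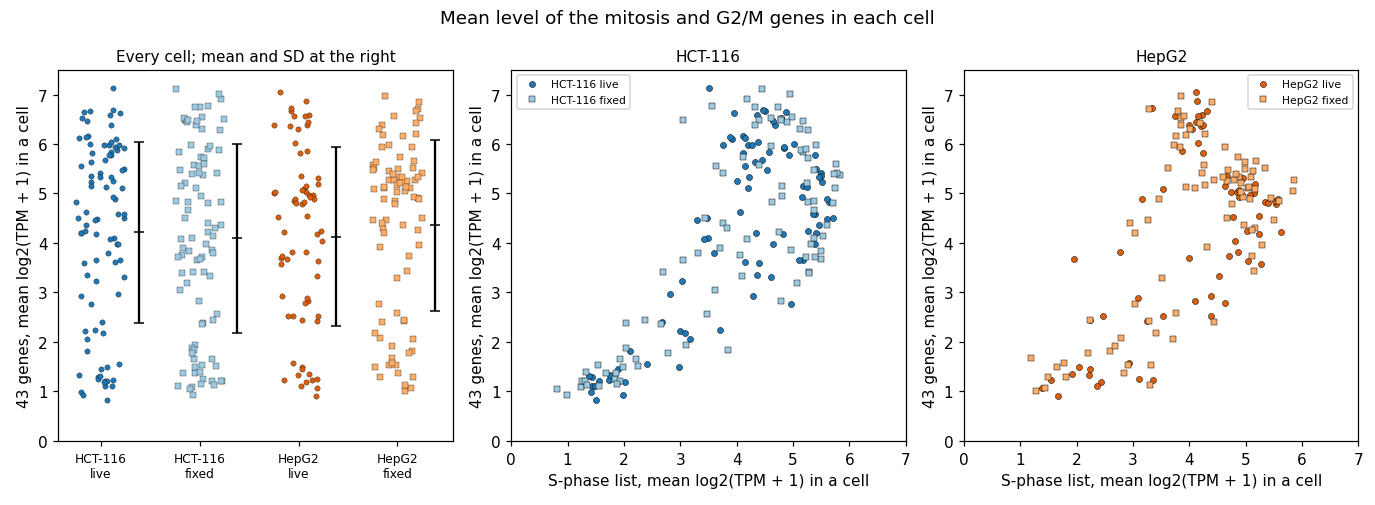
Mean log2(TPM + 1) over the 43 genes in every cell, by group with mean and SD (left), and against the same mean over 73 S-phase genes in HCT-116 (middle) and HepG2 cells (right). Live and fixed cells cover the same range, from about 1 to about 7, and the cells highest in the mitosis set lie left of those highest in the S-phase list.

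Outside the set, the genes most alike to its level in a cell were mitotic as well. Of 10349 other genes ranked by their lowest r over the 4 groups, the first 10 were PRC1 (0.905), KIF2C (0.895), NCAPG (0.886), CCNA2 (0.880), HMGB2 (0.872), SHCBP1 (0.869), NCAPH (0.857), DEPDC1B (0.857), KIF4A (0.855) and KIF23 (0.853). Of these, 9 are in the list of other mitosis genes and SHCBP1 is not. That list holds 95 genes, so at most 95 of the 10349, and was chosen with earlier results of these data known. PRC1 bundles microtubules of the central spindle, KIF2C is a kinesin that takes microtubules apart, NCAPG and NCAPH are condensin subunits and CCNA2 is cyclin A. Of the first 40 genes, 29 were in the list of other mitosis genes and 1 in the S-phase list. The nuclear RNA NEAT1 ran most steadily against the set, with an r from -0.613 in live HCT-116 to -0.412 in live HepG2 cells.

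Between the lines most of the 43 genes were within 2-fold. The median log2 ratio of HepG2 to HCT-116 was -0.09 in live cells, where all genes stood at 0.07, and -0.0011 in fixed cells, against 0.07. The tables of the lines were made separately, so these ratios join separately scaled values. Live HepG2 cells had 3 genes at least 2-fold lower, where 18.7% of all tested genes were, and 2 at least 2-fold higher, where 22% were. Fixed cells had 4 lower and 3 higher, beside 18% and 22% of all genes. CDC20 and CDC25B were lower in HepG2 in both states, CDC20 at 248.8 TPM (SD 203.0) in live HCT-116 and 96.8 (SD 138.8) in live HepG2 cells, 2.57-fold lower, and 2.35-fold lower in fixed cells. CDC25B was 2.56-fold lower in live and 2.44-fold lower in fixed cells. The kinase NEK2, which parts the centrosomes, was 2.08-fold and 2.23-fold lower, and CENPF passed 2-fold in fixed cells alone, at 2.15-fold. With cells paired on reads, NEK2 and CENPF in fixed cells had log2 ratios of -0.70 and -0.71, short of 2-fold. On the mean of log2(TPM + 1) NEK2 was at -0.66 in live and -0.33 in fixed cells and CENPF at -0.77 in fixed cells, while CDC20 and CDC25B stayed past 2-fold in all settings.

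Higher in HepG2 were AURKA, the spindle pole kinase, and TOP2A, topoisomerase II. AURKA averaged 46.4 TPM (SD 60.6) in live HCT-116 and 122.5 (SD 191.8) in live HepG2 cells, 2.64-fold higher, and was 2.70-fold higher in fixed cells. Medians of AURKA were 20.7 and 30.9 TPM in live cells and 15.5 and 66.1 in fixed cells. TOP2A was 2.29-fold higher in live and 2.02-fold higher in fixed cells, and CDC25C 1.89-fold and 2.09-fold. TOP2A was short of 2-fold with ribosomal RNA left out, at log2 ratios of 0.98 in both live and fixed cells, after median-ratio rescaling in fixed cells (0.97) and in live cells paired on reads (0.69). AURKA stayed past 2-fold in these settings. The 5 checkpoint genes were all below the median of all genes in HepG2 in both states, with medians of -0.58 in live and -0.35 in fixed cells, and MAD2L1, which binds CDC20 while the checkpoint is on, at -0.80 and -0.76. Each difference named here between the lines was smaller than the larger SD over cells, except that of CDC25B in live cells (31.7 TPM, SD 17.5, against 12.4, SD 12.7).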

How the data were processed

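The genes followed here and the lists beside them (95 other mitosis genes, 73 S-phase genes, marker lists) were chosen with earlier results of these data known. Reads were quantified with kallisto 0.46.0 against GRCh38, as the submitters' processing notes name them. The authors deposited TPM per gene, scaled to a fixed total per cell after division by transcript length, and per transcript CPM, estimated counts over the total reads of the cell, for 334 cells, and 12 labelled cells have no column here. Total reads in M were estimated as the inverse of the commonest transcript CPM of a cell, taken as that of a single read. Values near 0 were left out of this, and the estimate was rounded to 0.1 M.

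For every gene the mean, SD, CV and percent of cells with a TPM above 0 (exact 95% Clopper-Pearson intervals) were computed per group. Log2 ratios of means were taken over genes with a mean of at least 1 TPM. Correlations used ln(TPM + 1). Each group is 1 sample, so no test was run. Alternatives were other scalings, pseudocounts and filters, cells paired or weighted on total reads, thinned reads, and HepG2 without equal or very similar columns. Pairing took the first cells in column order at each number of reads, up to the smaller count of live or fixed cells. Named genes are members by role, the 5 highest and lowest ratios, the 5 closest pairs, the 10 most alike other genes and the 3 highest and lowest other mitosis genes; NEAT1 was named after values were seen. Length and GC are those of the MANE Select transcript (otherwise Ensembl canonical) of GENCODE release 44. Thinning to 500000 reads used transcripts of the current RefSeq, which hold 90.1% of the CPM in HCT-116 and 88.0% in HepG2, and left out 5 fixed HCT-116 cells. The computations were tested on simulated data. Python 3.11.15, numpy, pandas, scipy and matplotlib were used.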

Additional observations from a re-analysis of the deposited data

Results flagged for a closer look

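CENPA and CENPF had log2 ratios of fixed to live on opposite sides of the median of all genes in the 2 lines. The ratios of the lines differed by at least 0.5 in the values as deposited, after median-ratio rescaling and without ribosomal RNA. CENPA was at -0.35 in HCT-116 and 0.53 in HepG2, a difference of 0.88 (HepG2 minus HCT-116). CENPF was at 0.44 in HCT-116 and -0.18 in HepG2, a difference of -0.62. The differences between lines were not tested, as each line and treatment is 1 sample. With cells weighted to the same reads, CENPA was at 0.027 and 0.78, and CENPF at 0.57 and 0.30. All genes then stood at 0.18 in HCT-116 and 0.24 in HepG2, so CENPF was above them in both lines.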

How the results depend on the processing

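With ribosomal RNA left out, the fixed to live log2 ratio over the 43 had a median of -0.16 (HCT-116) and -0.012 (HepG2). In HCT-116 it was -0.089 on the mean of log2(TPM + 1) and -0.26 on that of log2(TPM + 0.1). On the latter, 2 genes were 2-fold lower in HCT-116, beside 18.4% of all genes. In HepG2, log2(TPM + 0.1) gave 2 genes 2-fold higher, beside 3.56% of all genes. HepG2 cells paired on reads gave a median of 0.87 with 10 higher and 0 lower, beside 6.46% and 11.3% of all genes. Weighting HepG2 cells by reads, chosen after seeing the data, gave 0.72 with 1 higher and 0 lower, beside 5.30% and 10.1%. For HepG2 to HCT-116, the live median turned to 0.047 with log2(TPM + 0.1). The fixed median, -0.0011, turned to 0.26 with log2(TPM + 1), 0.51 with log2(TPM + 0.1), 0.24 with paired cells and 0.015 without the columns of equal values. The SD of the level per cell was 2.61, 2.72, 2.48 and 2.46 with log2(TPM + 0.1) for HCT-116 live, HCT-116 fixed, HepG2 live and HepG2 fixed. The cause was not tested beyond what each setting changes. TACC3 kept the lowest ratio in each setting. No paired analysis was possible because each line and treatment is 1 sample and the labels pair no cells.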
